A study of Mus musculus with 2 samples.

Results

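Cyclin-dependent kinase inhibitors and D cyclins set whether a cell leaves G1, and 7 of their genes were followed here through the mandibular epithelium of the mouse embryo. They were taken by symbol from both count tables, which list 27998 genes for E12.0 and 31053 for E9.5. The genes were Cdkn1a, Cdkn1b and Cdkn1c, which encode the Cip/Kip inhibitors p21, p27 and p57, Cdkn2c, which encodes the Ink4 inhibitor p18, and the D cyclins Ccnd1, Ccnd2 and Ccnd3. All 7 had UMIs, counts of distinct transcript molecules, in both libraries. Cdkn2c stood near 1 UMI in 1000000, so 6 of the 7 members passed the minimum of 20 UMIs in 1000000 that was set for calls at E12.0.

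D cyclins bind Cdk4 or Cdk6 and phosphorylate the retinoblastoma protein, which releases E2f factors and lets the cell enter S phase. Ink4 proteins block Cdk4 and Cdk6 themselves, while Cip/Kip proteins bind cyclin-Cdk complexes and inhibit mainly those of Cdk2. Cdkn1a is a classical p53 target and a known marker of signaling centers such as the enamel knot of the tooth, Cdkn1c is an imprinted gene expressed from the maternal allele, and D cyclins respond to growth factor and Wnt signals.

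The E12.0 library held GFP-positive cells sorted by FACS from the mandibles of 6 pooled embryos of 1 litter, after Dispase and TrypLE. All embryos of both stages were K14Cre;R26mT/mG and untreated. In them Cre is driven by the Keratin 14 promoter and switches a reporter from tomato to GFP, so the sort takes epithelial cells in which Cre has acted. The E9.5 library held unsorted cells from the whole mandibular arches of 8 pooled embryos of 1 litter, taken apart in TrypLE alone, and so holds mesenchyme, endoderm and blood too. There was 1 library per stage and no replicate, so no test between samples was possible. All intervals below are exact 95% intervals for counting error only. Stage cannot be told apart from sorting, dissociation, litter, library or depth.

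After the filter of 200 to 5500 genes and at most 10% mitochondrial UMIs, 11355 cells with a median of 6349 UMIs remained at E12.0, beside 12744 cells with a median of 13460.5 UMIs at E9.5. The libraries shared 51 barcodes. Scrublet, which compares each cell with simulated mixtures, called 5.82% of the E12.0 and 2.60% of the E9.5 cells doublets, and these were kept. Levels are given as CPM, in which the summed UMIs of a gene are scaled to 1000000 UMIs of the same cells. UMIs came from 1 end of the transcript and are not scaled to length, so CPM values are compared between cells and not between genes.

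Groups of E12.0 cells were gates on genes outside the family: 258 Shh cells (at least 2 Shh UMIs), 1617 Irx1 cells (at least 1), 503 periderm cells (at least 3 UMIs of Ppl, Pkp1, Grhl3 and Nebl together), 5107 Cxcl14 cells (at least 3) and 617 Dmrt2 cells (at least 1). Shh marks the initiation knot of the tooth and other early placodes, Irx1 the dental epithelium, Cxcl14 the anterior and Dmrt2 a posterior part of the mandible. Periderm is the flat outer layer of embryonic epithelium. In the study these gate genes mark a cluster of periderm and suprabasal cells, which lie between the periderm and the basal layer. The periderm cells here are named after the gate and may hold both. Of the 503 cells 122 also passed the Irx1 and 45 the Shh gate. Some cells passed several gates, and 3933 passed none. Markers not used by the gates were compared with all other cells. In the Shh cells 5 of 5 were at least 1.5 times higher, and in the Irx1 cells 6 of 6. The counts were 5 of 5 in the periderm, 6 of 6 in the Cxcl14 and 4 of 5 in the Dmrt2 cells. Several of these markers, such as Gad1, Ntrk2 and Col14a1, were named by the study from this same library. The counts are therefore no independent check of the gates. Markers of mesenchyme summed to 14.0 CPM, of endothelium to 9.39 CPM, of macrophages to 0.423 CPM and of erythroid cells to 0.0257 CPM in the E12.0 library. The lists for endoderm and for neural crest or glia, which hold Shh and Sox2 that are also a gate gene and a gate marker here, summed to 133 and 114 CPM. The Shh cells also had more of the Irx1 markers (1212 against 385 CPM) and of the periderm markers (804 against 372 CPM) than all other cells. Scrublet called 12.4% of the Shh, 12.3% of the periderm, 10.2% of the Dmrt2, 9.59% of the Irx1 and 9.34% of the Cxcl14 cells, against 2.29% of cells in no gate.

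Cdkn1a lies on chromosome 17 (GRCm38, chr17:29090976-29100727, plus strand) and was the member that differed most between E12.0 gates. Its 2 annotated starts are shown because the upstream one carries a pair of CATG cores spaced as in a p53 element. The set of RefSeq promoters used here (GRCm38.p6) gives both, and of the members it also listed starts for Cdkn1b, Cdkn2c and Ccnd3. The 250 bases before each start are printed 5′ to 3′, with capitals for CATGNNNNNNCATG and for the GC box GGGCGG on either strand.
Cdkn1a, upstream start (chr17:29090729-29090978, plus strand): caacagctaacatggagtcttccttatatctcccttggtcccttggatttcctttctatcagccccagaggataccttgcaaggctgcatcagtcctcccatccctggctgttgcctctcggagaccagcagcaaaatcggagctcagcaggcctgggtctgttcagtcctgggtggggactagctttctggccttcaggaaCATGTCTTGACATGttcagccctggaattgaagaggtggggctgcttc
Cdkn1a, downstream start (chr17:29093519-29093768, plus strand): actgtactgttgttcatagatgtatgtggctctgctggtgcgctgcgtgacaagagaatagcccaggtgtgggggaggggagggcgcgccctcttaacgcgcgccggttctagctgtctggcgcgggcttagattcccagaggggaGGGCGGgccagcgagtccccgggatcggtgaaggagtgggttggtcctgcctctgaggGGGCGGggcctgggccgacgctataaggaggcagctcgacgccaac
The upstream start held 1 CATG pair and no GC box, and the downstream start held 2 GC boxes and no CATG pair. Of 32851 RefSeq promoters of the same length, 0.490% held the CATG pair and 32.7% a GC box. No CATG pair lay before the listed starts of the other members. The CATG pair was chosen after the Cdkn1a sequence was read, so its rarity is no test. These matches describe letters in a window, and no binding was measured. In GRCm38 5 members overlap an annotated gene on the other strand, Cdkn1a, Cdkn1c, Ccnd1, Ccnd2 and Ccnd3, and whether counting used the strand is not given in the sources used here.

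Cdkn1a was highest in the Shh cells and lowest in the Dmrt2 cells. It stood at 381 CPM (95% interval 355 to 409) in the Shh cells, 159 CPM (146 to 172) in the periderm cells and 67.0 CPM (62.6 to 71.5) in the Irx1 cells. The Cxcl14 cells had 43.2 CPM (41.1 to 45.4), cells in no gate 27.5 CPM (25.5 to 29.7) and the Dmrt2 cells 25.2 CPM (20.9 to 30.2). Only the last pair of neighbors in this order had overlapping intervals. Against all other E12.0 cells the log2 difference was 3.36 (3.25 to 3.48) in the Shh cells, 1.97 (1.84 to 2.10) in the periderm cells, 0.67 (0.56 to 0.78) in the Irx1 cells and -0.92 (-1.19 to -0.65) in the Dmrt2 cells. The Shh cells made up 2.27% of the cells and held 22.0% (20.6 to 23.4) of all Cdkn1a UMIs.

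The share of cells with a Cdkn1a UMI followed the same order at the top. It was 70.5% (64.6 to 76.0) in the Shh cells, 53.3% (48.8 to 57.7) in the periderm cells and 14.1% (11.5 to 17.1) in the Dmrt2 cells. With every cell thinned to 4000 UMIs, which left out 8 Shh, 35 periderm and 33 Dmrt2 cells, the shares were 56.4% (50.0 to 62.6), 37.8% (33.4 to 42.4) and 9.59% (7.32 to 12.3). Median depths were 7061.5, 6513.0 and 6965.0 UMIs in the same order. At E12.0 no cell type that should lack Cdkn1a was sorted, and free RNA was not measured.

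Cdkn1a was higher at each step in the number of Shh UMIs. It was 35.7 CPM (34.3 to 37.1) in 10888 cells without Shh, 105 CPM (89.1 to 122) at 1 UMI, 174 CPM (143 to 209) at 2, 272 CPM (230.5 to 318) at 3 to 4 and 608 CPM (557 to 662) in the 106 cells with 5 or more. No neighboring intervals overlapped. Among the Shh cells, the 170 with a UMI of Fgf20, Dkk4, Gad1, Sp5 or Proser2, genes of the initiation knot, had 517 CPM (480.1 to 556), and the 88 without had 103 CPM (80.2 to 130.1). The 24 Shh cells with a UMI of Foxa1 or Foxa2 had 153 CPM (105 to 215). For the periderm genes the rise ran from 35.5 CPM (34.0 to 37.0) at 0 UMIs to 169.7 CPM (153 to 187) at 5 or more.

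The gates shared cells, and this bore on the Irx1 and the Cxcl14 cells. Of the 1617 Irx1 cells, 1353 had no Shh UMI and did not pass the periderm gate, and Cdkn1a was 43.5 CPM (39.7 to 47.6) in these. That is near the 46.3 CPM (44.8 to 47.8) of all E12.0 cells, a set that includes the Cdkn1a-rich Shh and periderm cells. Restricted to cells of the Irx1 gate and no other, the log2 difference was -0.03 in place of 0.67, against a reference that also holds those cells. The 74 cells in both the Shh and the Cxcl14 gate had 448 CPM, or 327 of the 1594 Cdkn1a UMIs of the Cxcl14 cells. Cells of the Cxcl14 gate only had 33.3 CPM without a UMI of Top2a, a gene of dividing cells, and 31.4 CPM with one. In the same order cells of the Irx1 gate only had 60.8 and 40.0 CPM, above the 34.1 and 23.5 CPM of cells in no gate. Cells of the Dmrt2 gate only had 18.6 and 19.3 CPM. In periderm cells without a Shh UMI Cdkn1a was 133 CPM (121 to 146), and in Shh cells outside the periderm gate it was 394 CPM, so both of these groups stayed above all E12.0 cells.

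**Figure D1:**
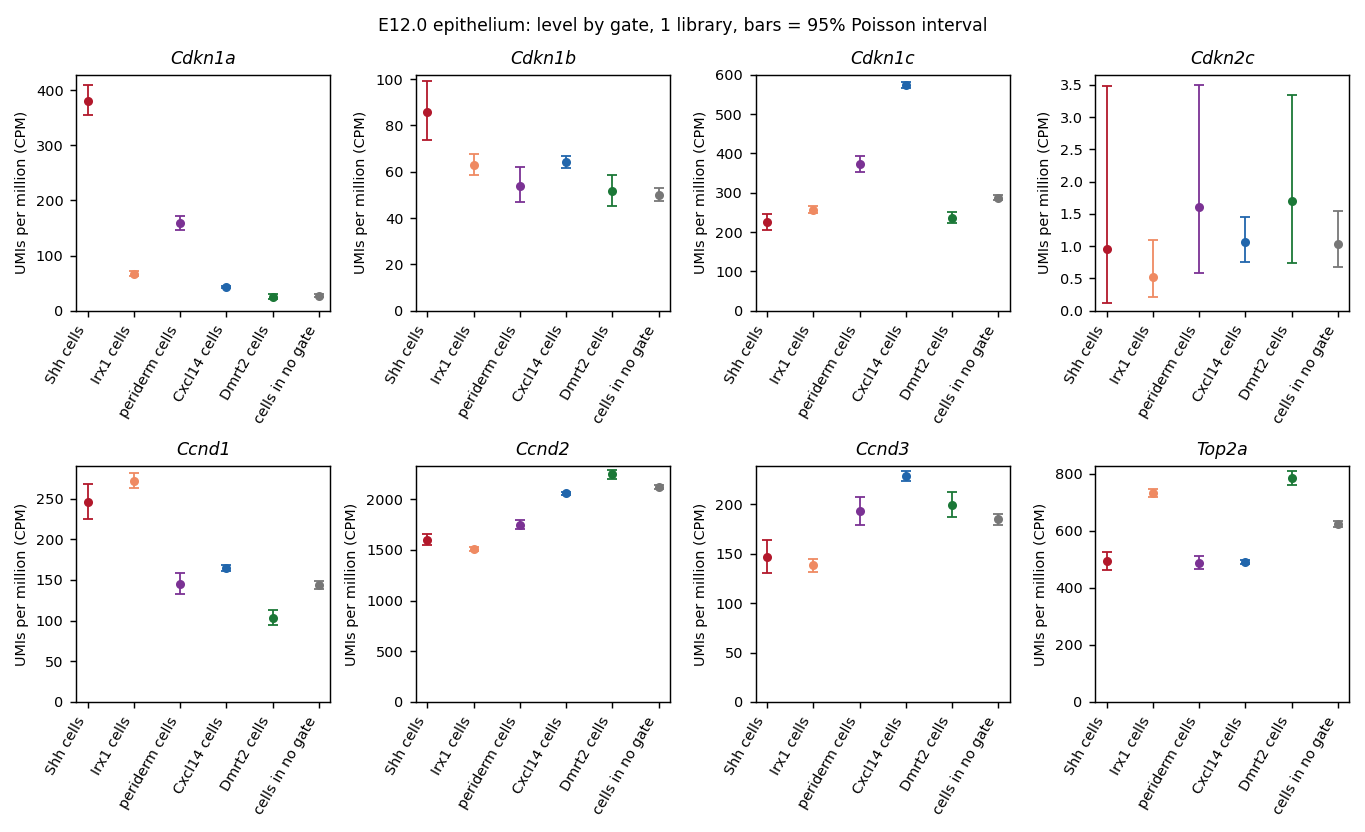
Level of the 7 members and of Top2a in the 5 E12.0 gates and in cells in no gate, in CPM (linear axes from 0), with 95% Poisson intervals. Cdkn1a reaches 381 CPM in the Shh cells, Cdkn1c 574 CPM in the Cxcl14 cells and Ccnd1 272 CPM in the Irx1 cells.

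Cdkn1b (chr6:134920401-134925513, plus strand), which encodes p27, varied least among the inhibitors above the minimum. It was 85.7 CPM (73.6 to 99.3) in the Shh cells, 64.3 CPM (61.8 to 67.0) in the Cxcl14 cells and 63.0 CPM (58.8 to 67.5) in the Irx1 cells. The periderm cells had 54.0 CPM (46.8 to 61.9), the Dmrt2 cells 51.5 CPM (45.2 to 58.4) and cells in no gate 50.0 CPM. The Shh cells stood above the other groups by their interval, while the lowest 3 groups overlapped. The log2 difference of the Shh cells was 0.56 (0.33 to 0.77), which did not pass the size criterion of 1.5-fold after 5 CPM were added to both sides.

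Cdkn1c (chr7:143458339-143461050, minus strand), which encodes p57, was highest in the Cxcl14 cells. It was 574 CPM (567 to 582) there, 374 CPM (354 to 394) in the periderm cells and 287 CPM (281 to 294) in cells in no gate. Lower values came from the Irx1 cells with 257 CPM (249 to 266), the Dmrt2 cells with 236 CPM (222 to 250.0) and the Shh cells with 225 CPM (205 to 247). The last 2 overlapped, as did the Irx1 and the Dmrt2 cells at their ends. The log2 difference was 1.12 (1.09 to 1.15) in the Cxcl14 cells, -0.78 (-0.83 to -0.73) in the Irx1 cells, -0.84 (-0.93 to -0.75) in the Dmrt2 cells and -0.88 (-1.02 to -0.75) in the Shh cells.

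The Cxcl14 cells made up 45.0% of the cells and held 66.1% (65.6 to 66.6) of the Cdkn1c UMIs, so the other 3 differences were measured against a set that they dominate. Against cells in no gate, the Shh, Irx1 and Dmrt2 cells differed in Cdkn1c by log2 values of -0.35, -0.16 and -0.29, none past the fold. In the Shh bins Cdkn1c ran opposite to Cdkn1a, from 419 CPM (414 to 423) without a Shh UMI to 181 CPM (154 to 212) at 5 or more. In the Cxcl14 bins it was 267 CPM (261 to 272) at 0 UMIs, 263 CPM (245 to 282) at 2 and 603 CPM (594 to 611) at 5 or more.

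**Figure D2:**
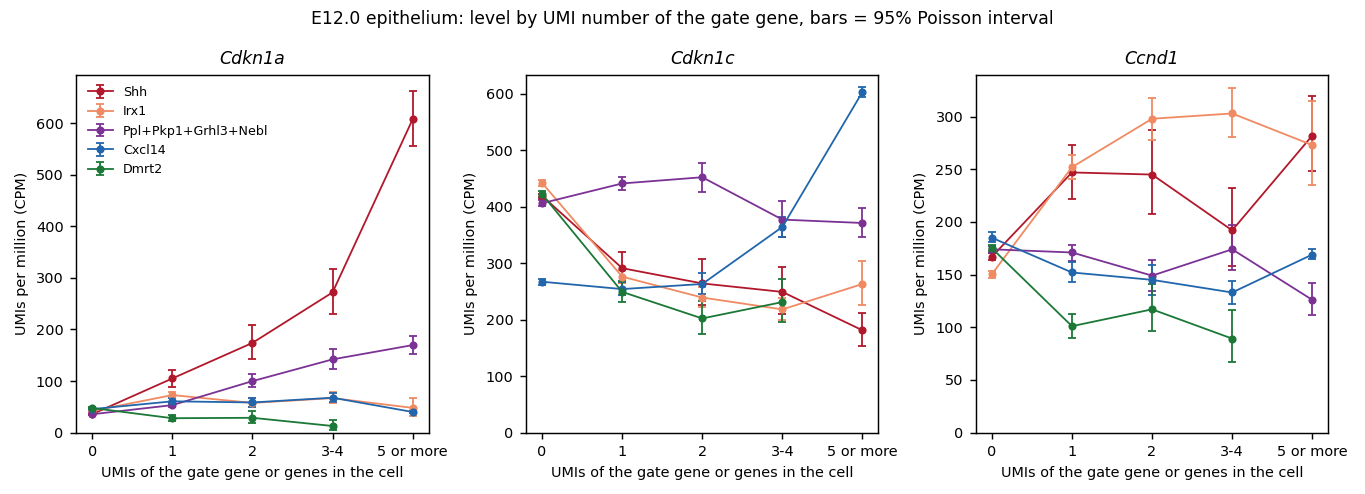
Level of Cdkn1a, Cdkn1c and Ccnd1 (CPM, linear axes from 0) in E12.0 cells grouped by their UMI number of each gate gene or gene set, with 95% Poisson intervals and bins under 20 cells left out. Cdkn1a climbs to 608 CPM along Shh and Cdkn1c to 603 CPM along Cxcl14, while Cdkn1c falls to 181 CPM along Shh.

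Cdkn2c (chr4:109660876-109667189, minus strand), the Ink4 member, had 83 UMIs in 82 of 11355 E12.0 cells, or 1.06 CPM (0.848 to 1.32). In the gates it ranged from 0.529 CPM (0.213 to 1.09) in the Irx1 cells to 1.70 CPM (0.732 to 3.34) in the Dmrt2 cells, with overlapping intervals. A difference between gates was not detectable at this depth. It was not spread evenly over the cycle, with 0.198 CPM in cells without Top2a and 1.76 CPM in cells with 4 or more Top2a UMIs.

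Ccnd1 (chr7:144929931-144939925, minus strand) was highest in the Irx1 and Shh cells. It was 272 CPM (263 to 281) in the Irx1 cells and 246 CPM (225 to 268) in the Shh cells, with overlapping intervals. The Cxcl14 cells had 165 CPM (161 to 169), the periderm cells 145 CPM (133 to 158), cells in no gate 144 CPM (139 to 149) and the Dmrt2 cells 103 CPM (94.5 to 113). The log2 difference was 0.85 (0.80 to 0.91) in the Irx1 cells, 0.54 (0.41 to 0.67) in the Shh cells and -0.76 (-0.89 to -0.63) in the Dmrt2 cells. In Irx1 cells without Shh UMIs and outside the periderm gate Ccnd1 stayed at 275 CPM (265 to 285), unlike Cdkn1a.

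Ccnd2 (chr6:127125162-127152193, minus strand) was found in nearly every E12.0 cell, 98.8% of them. It ranged from 1505 CPM (1484 to 1526) in the Irx1 cells and 1600.0 CPM (1546 to 1655) in the Shh cells to 2244 CPM (2202 to 2288) in the Dmrt2 cells. Ccnd3 (chr17:47505051-47599691, plus strand) ranged from 139 CPM (132 to 145) in the Irx1 and 147 CPM (131 to 164) in the Shh cells to 229 CPM (224 to 234) in the Cxcl14 cells. Thus the gates with the most Ccnd1 had the least Ccnd2 and Ccnd3, but these gates shared 84 cells. Without a Top2a UMI, Ccnd2 was 1927 CPM in cells of the Shh gate only, 1916 CPM for periderm only and 1677 CPM for Irx1 only. With a Top2a UMI the values were 1738, 1675 and 1345 CPM. Over the alternative settings the Ccnd2 log2 difference of the Shh cells ran from -0.42 to -0.12. No log2 difference of Ccnd2 or Ccnd3 passed the fold, the largest being -0.60 (-0.67 to -0.53) for Ccnd3 in the Irx1 cells. That value lay at the edge of the criterion, which adds 5 CPM to both sides, and passed it under some other settings.

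Ccnd1 therefore made up 14.2% of the D cyclin UMIs in the Irx1 cells and 12.3% in the Shh cells, against 4.06% in the Dmrt2 cells and 5.89% in cells in no gate. Ccnd2 made up between 78.6% in the Irx1 cells and 88.1% in the Dmrt2 cells. The 3 genes together had 1915 CPM in the Irx1 cells, 1993 CPM in the Shh cells and 2548 CPM in the Dmrt2 cells. The D cyclin total was thus lowest in both gates where Ccnd1 was highest.

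Of the 6 members tested, the number past 1.5-fold was 2 in the Shh cells, where 8.82% of 6746 genes passed, and 3 in the Irx1 cells, where 3.14% passed. It was 1 in the periderm cells (6.14% of genes), 1 in the Cxcl14 cells (4.40%) and 3 in the Dmrt2 cells (3.53%). The median log2 difference of the members, with 5 CPM added, was 0.10 in the Shh cells beside -0.03 for all genes and -0.46 in the Dmrt2 cells beside 0.01. The Irx1, periderm and Cxcl14 cells had member medians of -0.18, -0.13 and 0.16 beside 0.00, -0.03 and -0.02.

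Of the other 24 genes of the G1 to S pathway, 18 were tested at E12.0. In the Shh cells 1 was higher and 3 were lower. Rb1, the retinoblastoma gene, was 80.0 CPM against 42.4 (log2 0.92, 0.68 to 1.14). Cdk2 was 18.8 CPM against 33.7 and Ccne1, an E cyclin, 38.5 CPM against 60.5, with Ccne2 the third lower gene. In the Cxcl14 cells 2 were higher, Rb1 with 55.2 CPM against 32.8 and Mycn with 45.1 CPM against 23.4. In the Dmrt2 cells 1 was lower, Mycn with 13.8 CPM against 35.0, and in the Irx1 and periderm cells 0 of 18 passed in either direction.

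Of 14 other p53 targets, 9 were tested. In the Shh cells 2 were higher, Phlda3 with 121 CPM against 55.3 (log2 1.13, 0.94 to 1.31) and Trp53inp1 with 40.5 CPM against 24.0, and 7 did not pass. In the periderm cells 3 were higher, Perp, which is needed for desmosomes in stratified epithelia, with 515 CPM against 222, Plk2 and Sesn2. In the Irx1 cells 1 was lower, in the Cxcl14 cells 1 was higher, both Trp53inp1, and in the Dmrt2 cells 0 of 9 passed. The median of the 9 was 0.08 in the Shh cells and 0.26 in the periderm cells, beside -0.03 for all genes in both. The 11 genes of a dissociation response summed to 1717 CPM in the periderm and 1359.7 CPM in the Shh cells, beside 1180.3 CPM in all E12.0 cells. Of the 8 tested, 3 were higher in the periderm cells, Junb, Egr1 and Atf3, and in the Shh cells Junb and Atf3 were higher and Fos and Fosb lower, and their part in the Cdkn1a values was not tested.

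Cycling was read from transcripts in cells thinned to 4000 UMIs. Cells with at least 4 UMIs of 13 G2/M genes formed a G2/M class, of the rest those with at least 4 UMIs of 14 S genes an S class, and those with at most 1 of each a low class. At E12.0 these classes held 46.0%, 37.4% and 5.97% of 10439 cells, and 10.6% lay between. They are ranges of a count and not cell types, since 7.72% of the cells had 3 or 4 G2/M UMIs and 17.4% had 3 or 4 S UMIs.

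The low class held 16.5% of the periderm and 15.2% of the Shh cells, 8.26% of the Cxcl14, 3.17% of the Irx1 and 2.40% of the Dmrt2 cells. Top2a, a topoisomerase of dividing cells, gave a similar order for cycling, with 784 CPM in the Dmrt2, 732 CPM in the Irx1, 493 CPM in the Shh, 491 CPM in the Cxcl14 and 487 CPM in the periderm cells. The Top2a intervals of the Shh and Cxcl14 cells overlapped, while their Cdkn1a and Cdkn1c levels ran in opposite directions.

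The S genes were lower in the Shh cells for 7 of 14 and the G2/M genes for 0 of 13, while in the periderm cells these counts were 0 of 14 and 9 of 13. Cdkn1a and Cdkn1c were highest in the low class. Over all E12.0 cells Cdkn1a was 122 CPM in the low class, 40.7 CPM in the S class and 34.0 CPM in the G2/M class, a log2 difference of -1.84 (-2.04 to -1.64) between the last and the first. Cdkn1c was 639, 403 and 357 CPM in the same order, a difference of -0.84 (-0.92 to -0.76). Cdkn1b went the other way, with 46.5, 42.8 and 69.6 CPM and a difference of 0.58 (0.31 to 0.87).

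The Shh and periderm cells kept their Cdkn1a difference inside each class. In the low class the 38 Shh cells had 776 CPM, in the S class 289.7 CPM and in the G2/M class 216 CPM. Against other cells of the same class the log2 differences were 3.30 (2.95 to 3.64), 2.98 (2.61 to 3.34) and 2.84 (2.49 to 3.17), with overlapping intervals. For the periderm cells they were 1.54 (1.16 to 1.90), 1.87 (1.51 to 2.21) and 2.10 (1.76 to 2.43). For the Dmrt2 cells the difference was -0.42 (-1.08 to 0.16) in the S class and -0.52 (-1.07 to -0.02) in the G2/M class, and their 14 low-class cells were too few for a value. The Cxcl14 cells were lower in Cdkn1a within the low class, by -1.20 (-1.54 to -0.86) on the log2 scale, and not within the G2/M class, where the difference was 0.00 (-0.23 to 0.23). Of the 623 low-class cells 398 were Cxcl14 cells, so the Cdkn1a-rich 38 Shh and 77 periderm cells, some shared between gates, weighed on this reference. Over the alternative settings this Cdkn1a difference ran from -1.20 to 0.65. The Cxcl14 cells kept a Cdkn1c difference of 1.00 (0.83 to 1.18), 1.17 (1.10 to 1.25) and 1.12 (1.05 to 1.19).

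In the Shh cells Cdkn1c was 164 CPM in the low class and 180.4 CPM in the G2/M class, a log2 difference of 0.13 (-0.54 to 0.85). It was -1.08 (-1.38 to -0.77) in the periderm cells, -0.76 (-1.09 to -0.41) in the Irx1 cells and -0.58 (-0.67 to -0.49) in the Cxcl14 cells. The wide interval of the Shh cells overlapped those of the Irx1 and Cxcl14 cells, and the difference between gates was not tested. Against other low-class cells, the Shh cells were lower in Cdkn1c by -2.03 (-2.66 to -1.46) and higher in Ccnd1 by 1.24 (0.76 to 1.70), both on the log2 scale. Cxcl14 cells, the gate with the most Cdkn1c, made up 398 of the 623 low-class cells and so dominate this reference. The periderm cells of the low class were lower in Ccnd1, by -1.27 (-2.03 to -0.61).

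Among the D cyclins, Ccnd1 and Ccnd2 peaked in the S class. Ccnd1 was 138 CPM in the low class, 230.0 CPM in the S class and 131 CPM in the G2/M class, and Ccnd2 was 2146, 2389 and 1685 CPM. The difference of G2/M against S was -0.81 (-0.89 to -0.74) for Ccnd1 and -0.50 (-0.53 to -0.48) for Ccnd2. Ccnd3 changed less, with 221, 212 and 186 CPM.

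**Figure D3:**
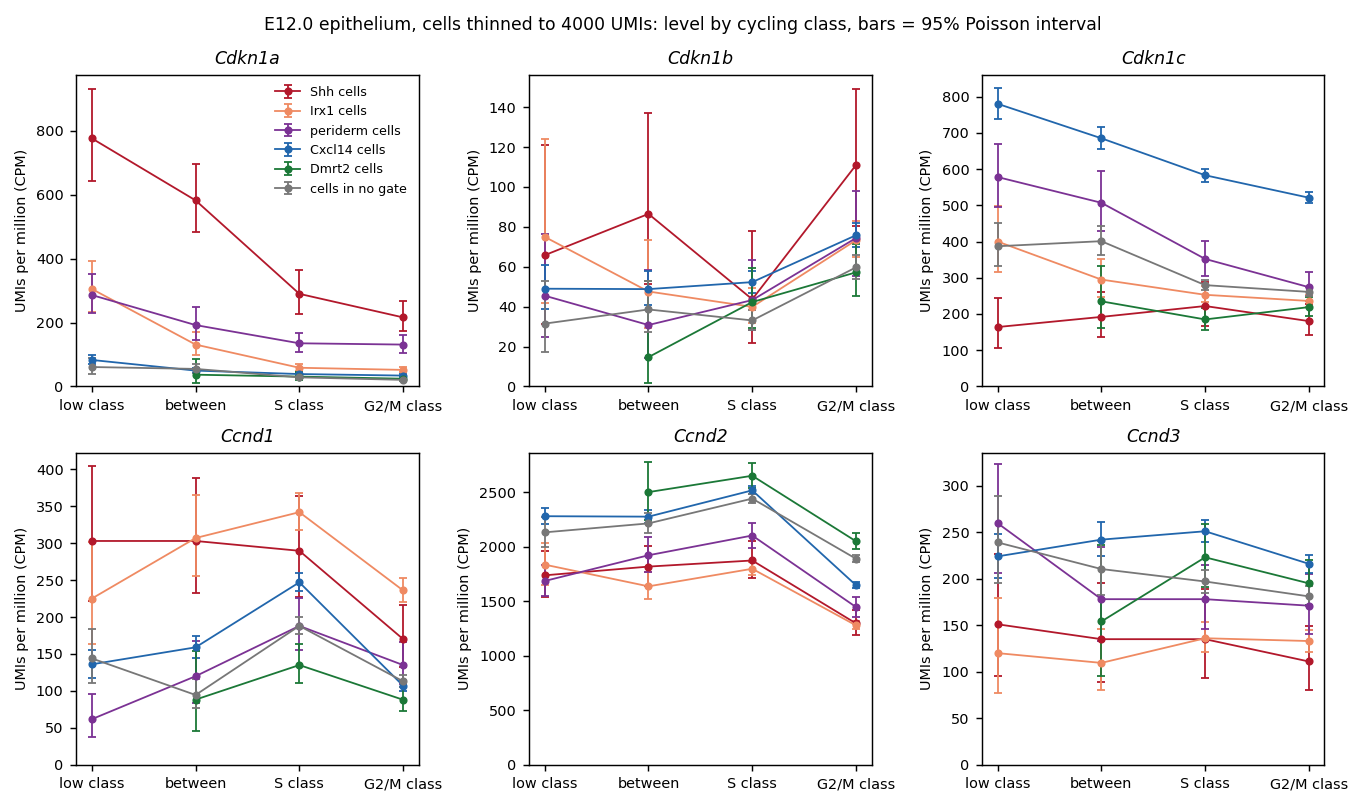
Level of 6 members (CPM, linear axes from 0) in E12.0 cells thinned to 4000 UMIs, by cycling class and gate, with 95% Poisson intervals and groups under 20 cells left out. The Shh cells lie above the other gates for Cdkn1a in each class, from 776 CPM in the low class to 216 CPM in the G2/M class.

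Joint detection in single thinned E12.0 cells was compared with independence. Cdkn1a and Top2a were found together in 577 cells, 0.888 times (0.819 to 0.961) the number expected if both were spread independently. The ratio was 1.15 (1.08 to 1.21) for Cdkn1b, 0.954 (0.928 to 0.980) for Cdkn1c, 0.915 (0.879 to 0.952) for Ccnd1 and 1.78 (1.27 to 2.43) for Cdkn2c. Of Shh cells, 53 had both Cdkn1a and Top2a, 0.847 times (0.651 to 1.07) the expected number, so cells with Cdkn1a were not all without Top2a. Among the 21 pairs of members in E12.0 cells, Cdkn1a and Cdkn1c stood at 0.939 (0.879 to 1.00) and Cdkn1a and Ccnd1 at 1.09 (1.00 to 1.18). The widest intervals were those of Cdkn2c, with 1.46 (0.628 to 2.87) beside Cdkn1a and 0.772 (0.422 to 1.29) beside Ccnd1. Ccnd2 was detected in 99.0% of these cells, so the ratios of its pairs had little room to depart from 1.

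The genes closest to each member were ranked by Pearson's r of log2(CPM + 5) over 12 E12.0 groups, cells of each of the 5 gates that passed no other gate and cells in no gate, each split by Top2a, among 6743 genes. These groups share 1 library and range from 43 to 2555 cells, and r is a description. Cdkn1a was closest to Gja1, a gap junction gene (r = 0.974), Tagln2 (0.974) and Bsg (0.962). Cdkn1c was closest to Piezo2, a mechanosensitive channel gene (0.971), Cers6 (0.944) and Otx1 (0.933). The list for Ccnd1 was led by Rplp1 (0.938), for Ccnd3 by Cdc42bpa (0.937), for Cdkn1b by Eif4g3 (0.948), for Ccnd2 by Lzts2 (0.882) and for Cdkn2c by Anapc15 (0.916), the last from a gene of few UMIs.

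At E9.5 the epithelium was taken as cells with at least 3 UMIs of Epcam and Cdh1 and more of these than of Prrx1 and Twist1, and the mesenchyme by the reverse. This gave 3158 and 6326 cells. The 6 epithelial markers not used by the gate summed to 1403 CPM in the epithelium and 96.4 CPM in the mesenchyme. Blood RNA was present throughout, and Hba-x, an embryonic globin, had a UMI in 52.2% of the epithelial and 56.9% of the mesenchymal cells.

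Cdkn1c and Ccnd2 were past the fold between the E9.5 epithelium and the mesenchyme, both higher in the epithelium. Cdkn1a was 36.0 CPM (34.2 to 37.8) against 4.77 CPM (4.35 to 5.21), a log2 difference of 2.92 (2.77 to 3.07), and Cdkn1b was 28.0 CPM (26.4 to 29.6) against 13.6 CPM (12.9 to 14.3). Cdkn1c was 204 CPM (199.6 to 208) against 91.5 CPM (89.7 to 93.4), a difference of 1.16 (1.11 to 1.20). Ccnd2 was 1108 CPM (1098 to 1118) against 573 CPM (568 to 578), a difference of 0.95 (0.93 to 0.97). Cdkn2c was 0.659 CPM (0.438 to 0.952) against 0.359 CPM (0.251 to 0.497), with overlapping intervals. Ccnd1 did not differ by size, with 153 CPM (149 to 157) against 150.0 CPM (148 to 152).

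Cdkn1a and Cdkn1b fell under 20 CPM over both cell sets together, so 4 members were tested and 2 of them passed, Cdkn1c and Ccnd2, where 13.6% of 5773 genes passed. Of 17 other pathway genes tested, 2 were higher in the epithelium, Cdk6 with 65.1 CPM against 37.9 and Tfdp2, and 2 were lower, Mycn with 72.4 CPM against 121 and Myc. Of the p53 targets 3 were tested and 0 passed. A Cdkn1a UMI was found in 27.2% of epithelial and 4.69% of mesenchymal cells, at median depths of 12982.5 and 16151.0 UMIs, and in 12.1% and 1.76% after thinning. At least 5 Cdkn1a UMIs were found in 40 epithelial (1.27%) and 16 mesenchymal cells (0.253%). Expression of Cdkn1a in mesenchyme was not separated from free RNA, so the mesenchymal share is read neither as expression nor as background.

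Within the E9.5 epithelium the members were compared along Vgll2, a marker of the oral side. Other genes were not compared in this way, so no count past the fold is given. In the 1292 epithelial cells without Vgll2, Pax1 or Foxa2 UMIs, Cdkn1c was 295 CPM (286 to 304), against 107 CPM (102 to 112) in the 1092 such cells with at least 2 Vgll2 UMIs, a log2 difference of 1.46 (1.38 to 1.54). Cdkn1a was 50.0 CPM (46.5 to 53.8) against 25.1 CPM (22.8 to 27.6), and Cdkn1b 35.5 CPM (32.5 to 38.7) against 20.5 CPM (18.4 to 22.8). Ccnd1 ran the other way, with 107 CPM (102 to 112) against 188 CPM (182 to 195), a difference of -0.81 (-0.90 to -0.73). Ccnd2 differed by -0.23 (-0.26 to -0.20), Ccnd3 by 0.41 (0.32 to 0.50) and Cdkn2c by -0.11 (-1.65 to 1.38). Top2a was 585 CPM against 561 CPM, and the G2/M class held 85.2% against 92.8% of the thinned cells. Over the E9.5 epithelium the G2/M class was lower than the S class by log2 -1.12 (-1.25 to -0.98) in Cdkn1c and -0.87 (-1.21 to -0.51) in Cdkn1a. Median depths were 10857.5 and 15082.5 UMIs, and the part of depth or cycling in these values was not tested. Cells without Vgll2 are not read as aboral, since the study also describes oral cells without Vgll2 at this stage. In the 57 epithelial cells with at least 2 UMIs of Tfap2b, its aboral marker, Cdkn1c was 135 CPM, Cdkn1a 49.4 CPM and Ccnd1 101 CPM.

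In the endoderm gates Cdkn1c was 415 CPM (390.5 to 442) in the 179 Foxa2 cells and 185 CPM (173 to 198) in the 317 Pax1 cells, which mark the pharyngeal pouches. Cdkn1a was 51.4 CPM (42.9 to 61.1) and 17.3 CPM (13.7 to 21.6) in the same cells. In the mesenchyme, Cdkn1c was 214 CPM (204 to 223) in the 547 cells with at least 2 UMIs of Hand2, a gene of the distal arch, and 74.8 CPM (73.0 to 76.7) in the Hand2-negative cells, a log2 difference of 1.51 (1.44 to 1.59). The highest E9.5 levels of Cdkn1c were 563 CPM (544 to 582) in the 410 mesoderm core cells (at least 3 UMIs of Tcf21, Msc and Myf5) and 482 CPM (461 to 502) in the 295 endothelial cells (at least 2 UMIs of Cdh5 and Pecam1). The lowest was 54.4 CPM (50.1 to 58.9) in the 580 cells with at least 2 UMIs of Sox10, a neural crest gene. The G2/M class held 84.3% of the Foxa2, 94.3% of the Pax1, 92.3% of the Hand2 and 95.2% of the Hand2-negative cells. It held 84.8% of the mesoderm core, 85.2% of the endothelial and 97.0% of the Sox10 cells. Top2a was 588, 629, 556, 472, 579, 489 and 577 CPM in the same order, and the part of cycling was not tested.

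**Figure D4:**
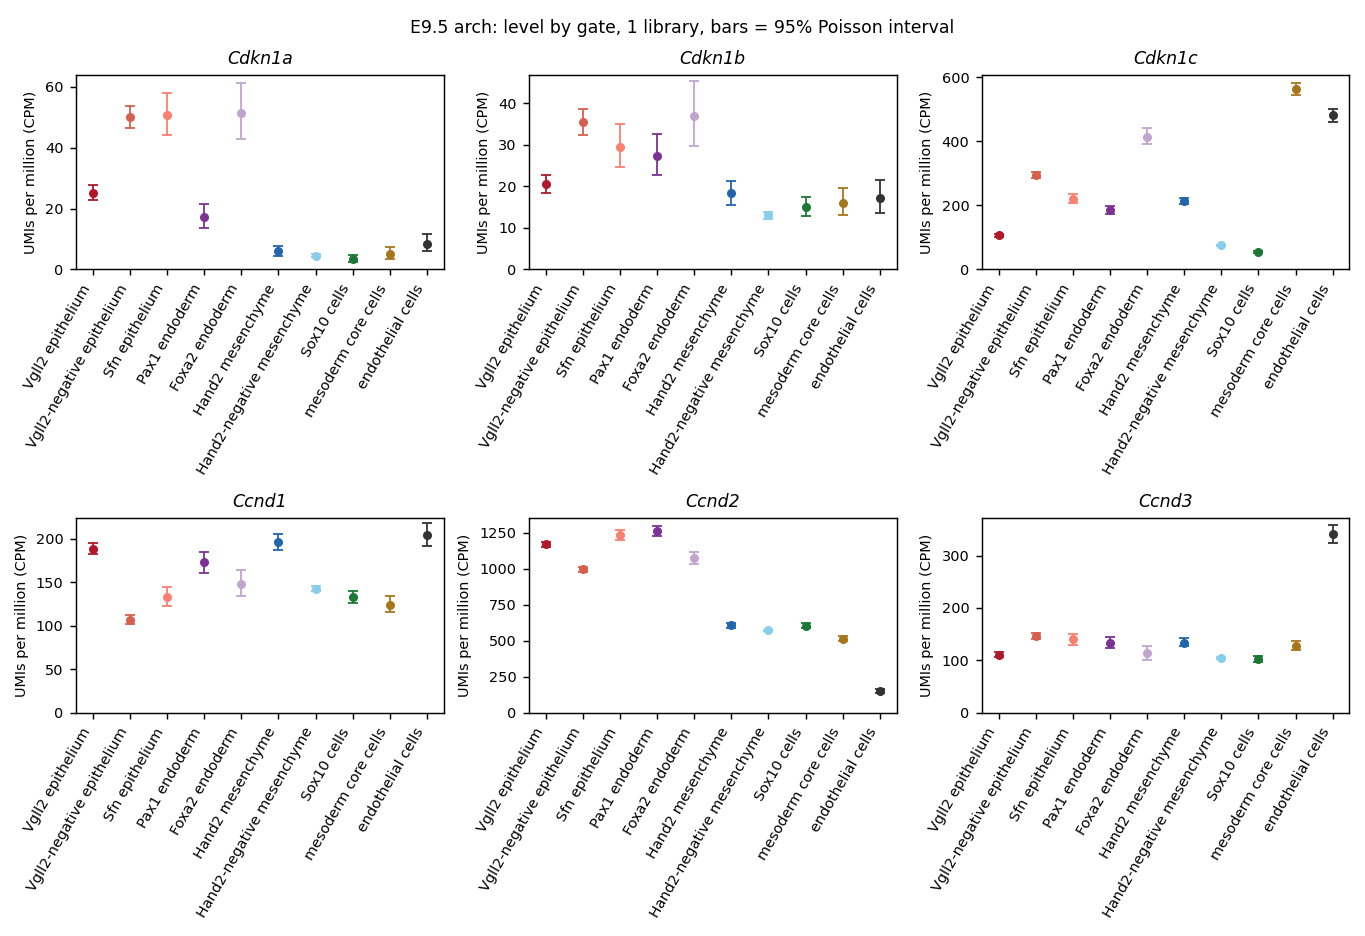
Level of 6 members (CPM, linear axes from 0) in 10 groups of E9.5 cells, with 95% Poisson intervals. Cdkn1a lies between 17.3 and 51.4 CPM in the 5 epithelial and endodermal groups and between 3.56 and 8.47 CPM in the other 5, and Ccnd3 peaks at 341 CPM in the endothelial cells.

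The D cyclin makeup of the endothelial cells stood apart from the other E9.5 groups. Ccnd3 was 341 CPM (324 to 359) there and 102 to 161 CPM in the other groups, and Ccnd2 was 150.5 CPM (139 to 162), below the 515 CPM (497 to 533) of the mesoderm core cells. Ccnd3 thus made up 49.0% of the D cyclin UMIs in endothelial cells, with 29.4% for Ccnd1 and 21.6% for Ccnd2. In the mesenchyme Ccnd2 made up 69.0% and in the epithelium 79.8%. Ccnd1 made up 18.1% and 11.0% in the same order.

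**Figure D5:**
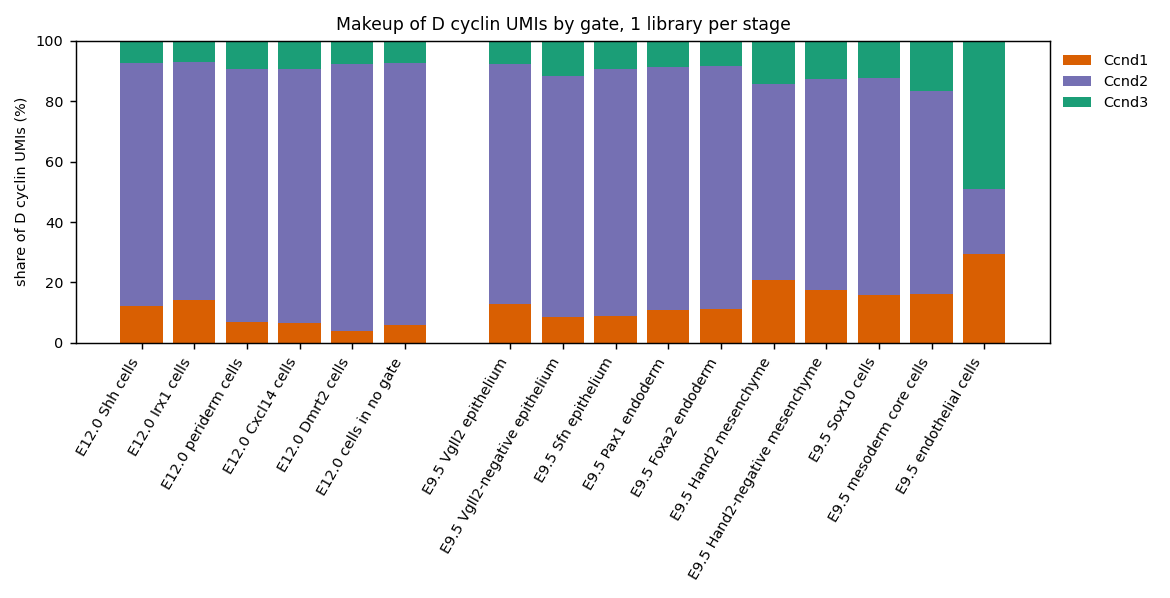
Share of each D cyclin in the summed D cyclin UMIs (stacked bars, 0 to 100%) for the E12.0 gates and 10 groups of E9.5 cells. Ccnd2 takes the largest share in every group shown but the E9.5 endothelial cells, where Ccnd3 takes 49.0%.

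Between the stages, all kept E12.0 cells were set against 2662 E9.5 epithelial cells without Pax1 or Foxa2 UMIs, over the 27514 genes shared by Ensembl identifier. Cdkn1c differed by 1.10 (1.07 to 1.14) on the log2 scale, Cdkn1b by 1.10 (1.00 to 1.21), Ccnd2 by 0.87 (0.85 to 0.89) and Ccnd3 by 0.64 (0.59 to 0.68), each higher at E12.0. Cdkn1a differed by 0.31 (0.22 to 0.40) and Ccnd1 by 0.18 (0.14 to 0.23), neither past the fold. So 4 of the 6 members tested passed, in a comparison in which 40.5% of 6653 genes did. The stages also differed in sorting, dissociation, litter, library, Cell Ranger version, list of genes counted and depth.

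Other values moved with the same comparison. The median log2 difference was 0.74 for the members and 0.16 for all genes. Of 13 G2/M genes 10 were lower at E12.0, and of 8 dissociation genes tested 7 were higher, with a median of 2.21. Of 19 pathway genes tested, 3 were higher at E12.0, with Rb1 at 43.4 CPM against 6.86 and Cdk6 at 156 CPM against 65.3, and 4 were lower, with E2f5 at 22.7 CPM against 94.4. Of 7 p53 targets tested, 4 were higher and 1 was lower. In thinned cells 46.0% of the E12.0 and 88.8% of these E9.5 epithelial cells were in the G2/M class, and the low class held 0 of the 2627 E9.5 cells. The level of Top2a differed little, with 586 CPM in the 10888 E12.0 cells without Shh and 568 CPM in these E9.5 cells. Its share of thinned cells was 49.8% at E12.0 and 76.7% in the whole E9.5 epithelium. With only G2/M-class cells on both sides, a comparison added after the data were seen, Cdkn1c, Cdkn1b and Ccnd2 still passed the fold and Ccnd3 did not. This does not match the stages for cycling, since the class starts at 4 UMIs. The median sum of the G2/M genes was 3.0 UMIs in E12.0 and 9.0 UMIs in all E9.5 thinned cells.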

How the data were processed

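Libraries were made with 10x Genomics single cell 3′ V3 chemistry, 1 per stage. The authors deposited raw UMI counts per gene and barcode as sparse matrices, not normalized, aligned to mm10 (GRCm38). The submitters' processing notes name Cell Ranger 2.0.0, while per the file headers the version was 3.1.0 for E12.0 and 6.1.2 for E9.5. The matrices hold more barcodes than the cells the methods state, 11663 at E12.0 and 14293 at E9.5.

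Cells with 200 to 5500 genes and at most 10% mitochondrial UMIs were kept, which removed 308 barcodes at E12.0 and 1549 at E9.5. Kept cells summed to 77936364 and 166191431 UMIs. Raw counts were summed over gates and scaled to CPM, with exact Poisson intervals for levels, exact conditional intervals for log2 ratios and Clopper-Pearson intervals for shares, at 95%. A gene was past the fold when its ratio, with 5 CPM added to both sides, was at least 1.5 in either direction, among genes of at least 20 CPM over the cells compared. With 1 library per stage and cells that are not replicates, no p-value was computed. Each cell with at least 4000 UMIs was thinned to 4000 (seed 1) for shares, classes and joint detection, which left out 916 and 1715 cells. Doublets were called with Scrublet and kept, with an alternative without them.

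The genes named are the 7 members, Top2a, genes past the fold from lists of the G1 to S pathway (24 genes), p53 targets (14) and dissociation (11), and the 3 genes closest to each member over 12 groups. Foxa1, Foxa2 and the knot markers split the Shh cells. The members and lists were chosen with earlier results of these data known. The CATG pair was chosen after the sequence was read. Sequences came from a set of RefSeq promoters (GRCm38.p6). In this set 4 of 7 members had an entry and Cdkn1c, Ccnd1 and Ccnd2 did not, and RefSeq itself was not searched. Alternatives changed the gate threshold, cell filters, reference cells, fold and added CPM. The minimum CPM for calls was not varied, so how the calls depend on it was not tested. The computation was tested on simulated data. Intervals used scipy 1.17.1, tables pandas 2.3.3 and numpy 2.4.6, Scrublet scanpy 1.11.5 and figures matplotlib 3.10.9, all under Python 3.11.15.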

Additional observations from a re-analysis of the deposited data

Results flagged for a closer look

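The barcodes removed by the cell filter entered no comparison, and their UMIs of the members lay above the limit that a count of 0 allows, except for Cdkn2c in the E12.0 barcodes with 1 UMI, or 1.03 CPM against a limit of 3.08 CPM. There were no control samples for such barcodes. In the 308 removed E12.0 barcodes Cdkn1a was 20.5 CPM, Cdkn1b 61.5 CPM and Cdkn1c 359.9 CPM. The D cyclins were at 174 CPM for Ccnd1, 1537 CPM for Ccnd2 and 151 CPM for Ccnd3. In the 1549 removed E9.5 barcodes Cdkn1a was 13.5 CPM, Cdkn1b 19.9 CPM, Cdkn1c 177 CPM and Cdkn2c 0.331 CPM. Ccnd1 was 159.8 CPM, Ccnd2 787 CPM and Ccnd3 133 CPM in the same barcodes.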

How the results depend on the processing

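Of 84 counts of members past the fold over 7 comparisons and their alternatives, 72 stayed within 1.5 times the reported count and 54 equalled it, among them 4 of 13 for the Shh and 4 of 13 for the Irx1 cells, which under other settings gained Cdkn1b, Ccnd1 or Ccnd3, and Cdkn1b, Ccnd2 or Ccnd3. With a fold of 2 the counts were 1 in the Shh cells, 0 in the Irx1 and Dmrt2 cells, 1 in the E9.5 epithelium and 1 between the stages. Against cells in no gate the Dmrt2 count was 0, and Cdkn1c was not past the fold in the Shh and Irx1 cells. Within the low class, with 50 Irx1, 77 periderm and 398 Cxcl14 cells, the counts were 5, 2 and 2 in this order. With cells of 1 gate only the counts were 2 in the periderm and 2 in the Cxcl14 cells. With cells without Top2a UMIs the count was 2 in the periderm cells. For the alternatives the share of all genes past the fold was not computed, so these counts have no background beside them. Of 583 log2 differences, 430 stayed in the reported interval, 152 moved out of it and 1 that was past the fold changed sign, Cdkn1a in the Irx1 cells at -0.03 with cells of that gate only. Values not past the fold changed sign 28 times, among them Cdkn1a at -0.06 and Ccnd1 at -0.10 between the stages with only G2/M-class cells. Cdkn1a in the Irx1 cells was also not past the fold at a gate threshold 1 UMI higher. The cause of these shifts was not tested. Cdkn1a stayed between 3.28 and 3.79 in the Shh cells and between 1.54 and 2.53 in the periderm cells, and Cdkn1c between 1.00 and 1.16 in the Cxcl14 cells. Between the stages Ccnd3 was not past the fold at a mitochondrial limit of 5%, nor with only G2/M-class cells, an alternative chosen after seeing the data.

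No paired analysis was possible because there was 1 library per stage, and no replicate was left out for the same reason. The low-class alternative was not run for the Dmrt2 cells, which had 14 cells in that class, under the minimum of 20. Differences of Cdkn2c between gates are limited by its 83 UMIs at E12.0.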
